A study of Homo sapiens with 6 samples.

Results

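The immediate early and AP-1 genes described here are 10 genes, JUN, JUNB, JUND, FOS, FOSL1, EGR1, ATF3, IER2, IER3 and IER5, taken by symbol from the 18768 genes to which the transcript counts could be assigned. They were chosen by their measured levels over the 6 libraries, with libraries in view from which some of them nearly vanish, so those levels and the fold changes are a description and not tested results. The libraries came from HCT116 cells, a human colorectal carcinoma line, transfected with a short interfering RNA (siRNA), either one directed against the long non-coding RNA AC010789.1 (si-AC010789.1, n = 3) or a negative control (siRNA-NC, n = 3). All 6 libraries therefore share the cell line and a transfected siRNA, and 1 siRNA sequence stands for the knockdown. RNA was sequenced as paired-end libraries, and the authors deposited whole-number counts per transcript, which were summed per gene. The study asked which mRNAs differ when AC010789.1 is silenced.

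Immediate early genes are switched on within minutes of a growth factor, serum or stress signal, without the need for new protein synthesis. MAP kinases phosphorylate factors such as ELK1, which sit with serum response factor (SRF) on the promoters, and the mRNAs are short-lived, so their levels follow recent signalling closely. Many encode transcription factors: JUN and FOS proteins pair through a leucine zipper to form AP-1, which binds TGANTCA, while pairs with ATF and CREB proteins prefer the longer TGACNTCA. In colorectal carcinoma AP-1 acts downstream of growth factor and of Wnt signalling.

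Library totals were 11277222 to 13443866 counts, and 99.907% to 99.941% of them fell in transcripts with an annotated gene. At these depths the floor of 3 counts, used as the lower limit of any fold, was 0.223 to 0.266 CPM (library counts scaled to a common total), a limit that covers counting error only. Neither the labels nor the deposited table names a batch. For this sequencing the paper describes substantial differences within the group and proposes that biological repeats from different cell generations may account for them. It set aside genes that differed significantly within a group. The labels do not tie a library to a culture, so p-values measure the spread between these libraries, which may in part be technical. AC010789.1 itself was not analysed here, and no check of the group labels rests on it. The keratins KRT8 (444 to 849 CPM) and KRT18 (351 to 535 CPM) were abundant, whereas the defining epithelial markers EPCAM (3.1 to 5.58 CPM) and CDH1 (0.674 to 1.05 CPM) were low and LGR5 lay between 0 and 0.266 CPM. CDH1 had 0.674 to 0.708 CPM under siRNA-NC against 0.798 to 1.05 CPM under si-AC010789.1, without overlap, and was too low to be tested. These were 8 to 9 counts against 10 to 13, so the gap is a few reads. For EPCAM, KRT8, KRT18 and LGR5 the groups overlapped. The 5 colorectal markers with values summed to 984 to 1230 CPM under siRNA-NC against 801 to 1040 CPM under si-AC010789.1. Markers of other cell types summed to 51.9 to 61.5 CPM under siRNA-NC against 49.5 to 58.3 CPM under si-AC010789.1, of which COL1A1 gave 37.7 to 48.0 CPM, with values for 6 of 11 markers. Of these 6, CD68 (5.32 to 8.28 CPM with siRNA-NC, 2.18 to 4.71 CPM with si-AC010789.1), ACTA2 (1.72 to 2.11, 0.809 to 0.958) and COL3A1 (2.56 to 3.98, 1.76 to 2.53) were lower in si-AC010789.1 without overlap. NCAM1 (0.177 to 0.375, 0.566 to 0.872) was higher without overlap, and the groups overlapped for COL1A1 and DCN. For NCAM1 these were 2 to 5 counts against 7 to 10, near the floor, and it was not tested. Groups without overlap were seen for 25.1% of all tested genes. EdgeR called 0 of the 5 tested, 2 (CD68 and ACTA2) had an unadjusted p under 0.05, and DESeq2 called 0. Over all tested genes these shares were 0.944%, 17.2% and 3.79%. The part of these markers in the results was not tested. In such bulk RNA fewer cells of a kind and less RNA per cell cannot be told apart.

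The promoters were searched for elements through which such genes are known to be switched on. RefSeq windows of 250 bases before to 50 bases after the gene start (GRCh38.p14) were held for 8 of the 10 genes, 9 windows in all, with none for FOSL1 and IER3. Both strands were searched for TGANTCA, for TGACNTCA, for the core promoter element TATAAA and for the CArG box, the site of SRF, which can contain TATAAA. TGACNTCA was in 3 of 9 windows and in 7.72% of 35116 promoters, the CArG box in 1 of 9 and 1.29%, TATAAA in 3 of 9 and 11.5%, and TGANTCA in 0 of 9 and 7.71%. A match of letters is a description of the window and not a site of binding. The stretches of 30 bases around a match are printed for JUN, JUND, ATF3, FOS and EGR1 because they carry those elements, 5′ to 3′ on the strand of the gene, with the match in capitals: TGACNTCA for JUN, JUND and ATF3, TATAAA for FOS and the CArG boxes for EGR1. They lie at chr1:58784096-58784125 (minus strand), chr19:18281804-18281833 (minus strand), chr1:212565273-212565302 (plus strand), chr14:75278783-75278812 (plus strand), chr5:138465364-138465393 (plus strand) and chr5:138465386-138465415 (plus strand). In GENCODE v29 the stretches of JUN and FOS fall inside the annotated gene, since its start lies upstream of the RefSeq start. ATF3 had 2 windows, and its stretch is from the upstream one, while the other held TATAAA and no TGACNTCA. All ATF3 transcripts with counts start at chr1:212608670 or further downstream, so the printed stretch does not adjoin the start of any of them.
JUN: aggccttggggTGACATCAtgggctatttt
JUND: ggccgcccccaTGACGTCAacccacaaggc
ATF3: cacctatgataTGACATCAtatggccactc
FOS: taaaacgcttgtTATAAAagcagtggctgc
EGR1 upstream site: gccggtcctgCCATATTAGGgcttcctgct
EGR1 downstream site: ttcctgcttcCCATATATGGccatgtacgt

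For IER5 and IER2, the genes with the largest gaps between libraries, the 150 bases before the RefSeq start are printed, at chr1:181088550-181088699 and chr19:13150261-13150410, both on the plus strand. Neither holds any of the 4 searched elements, so no base is in capitals. The IER2 transcript with the most counts, ENST00000588173, starts further downstream, at chr19:13151975, so the printed stretch does not adjoin its start.
IER5 upstream: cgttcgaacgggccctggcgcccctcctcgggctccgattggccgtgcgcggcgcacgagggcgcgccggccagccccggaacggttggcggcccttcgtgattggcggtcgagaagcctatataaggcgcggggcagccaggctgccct
IER2 upstream: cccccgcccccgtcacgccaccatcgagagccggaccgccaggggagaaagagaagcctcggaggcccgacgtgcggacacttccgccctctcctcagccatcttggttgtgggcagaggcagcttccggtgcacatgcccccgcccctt

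Per kilobase of transcript, which allows genes to be compared, IER3 had the highest median level of the siRNA-NC libraries (67.3 CPM per kb, 64.6 to 73.3 over all 6 libraries). JUNB followed at 57.9 (48.9 to 62.9) and JUND at 45.1 (42.5 to 53.6), so the JUN family members with the highest levels were those other than JUN itself. The next were IER2 at 26.3 (5.56 to 30.5), FOSL1 at 21.1 (12.7 to 25.6) and IER5 at 17.9 (0 to 20.6). JUN stood at 10.7 (9.29 to 12.2), FOS at 10.3 (5.86 to 11.8), ATF3 at 8.59 (6.58 to 10.5) and EGR1 at 4.82 (4.06 to 5.83). Among the siRNA-NC libraries the ranges of neighbours overlapped for IER5 and JUN, JUN and FOS, and FOS and ATF3, so the order within these pairs was not resolved. The levels that follow are CPM on library sizes scaled with trimmed means of M-values (TMM).

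**Figure D1:**
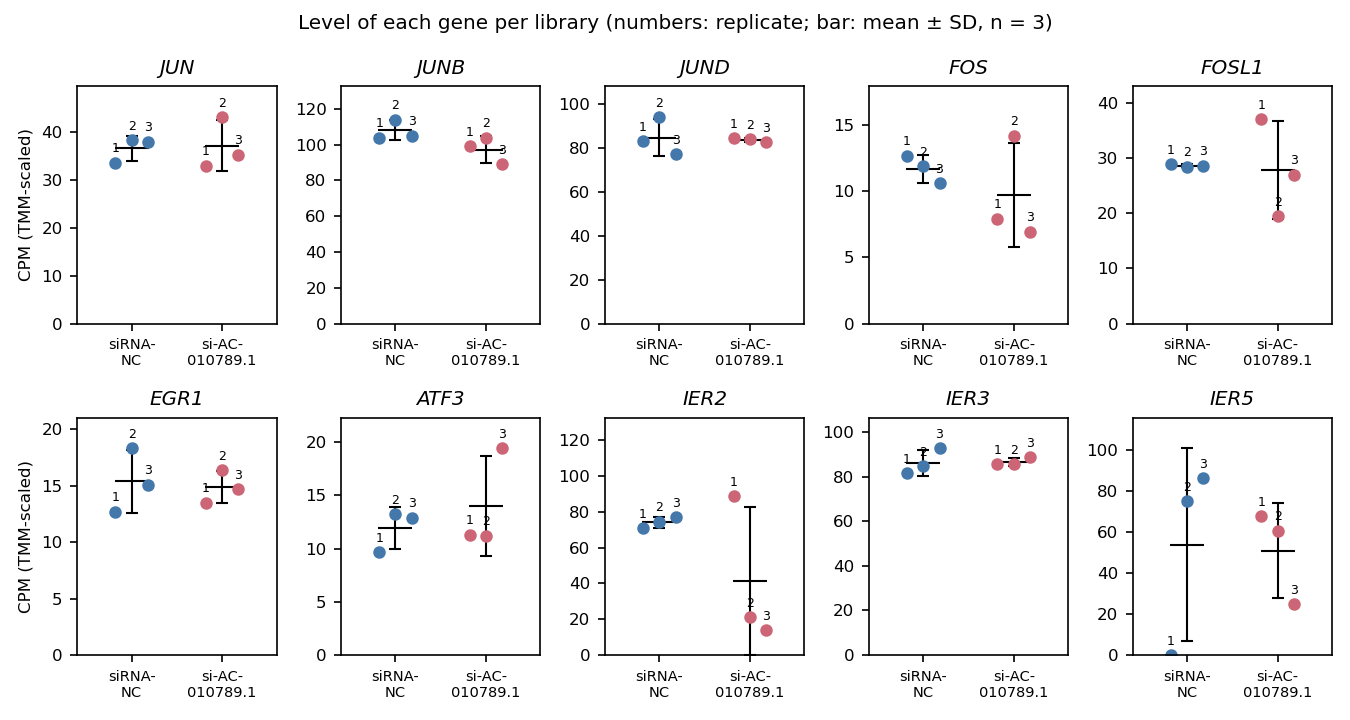
Level of the 10 genes in each library (CPM, linear axis from 0), with siRNA-NC in blue, si-AC010789.1 in red, the replicate number above each point and a bar for the mean ± SD (n = 3). IER5 is at 0 in siRNA-NC 1 and IER2 is at 21.0 and 13.8 CPM in si-AC010789.1 2 and 3, while JUN, JUNB, JUND, EGR1 and IER3 show no such gap.

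IER5 encodes an immediate early nuclear protein that works with the heat shock factor HSF1 and protein phosphatase 2A. The gene (ENSG00000162783.10, chr1:181088712-181092899, plus strand) has 1 exon and 1 annotated transcript, so no division of reads between isoforms enters its value. Replicates 1, 2 and 3 of siRNA-NC held 0, 998 and 1152 counts of it, and those of si-AC010789.1 held 776, 759 and 305. In CPM these were 0, 75.2 and 86.3 in the controls and 67.7, 60.6 and 24.7 after si-AC010789.1. The control group thus held both the lowest and the highest library, and the groups overlapped. Against the floor of 3 counts in siRNA-NC 1 (0.266 CPM), the level there was at least 283-fold lower than in siRNA-NC 2 and at least 92.9-fold lower than in si-AC010789.1 3, the library with the next lowest level. Of the 9971 genes with a mean of at least 10 CPM, IER5 was the 1 gene (0.01%) with 0 counts in 1 library and at least 300 in each of the other 5. That limit lies just under the 305 counts of its next lowest library and was set with the gene known, so nothing is read from the count.

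The second gap in IER5 lay within the knockdown group, where replicate 3 was 2.46-fold below the middle library. Group means were 53.8 ± 47.0 CPM under siRNA-NC against 51.0 ± 23.1 CPM under si-AC010789.1 (SD, n = 3), and the fitted log2 fold change was -0.08 (SE 1.21). Without siRNA-NC 1 it was -0.66 and without siRNA-NC 3 it was 0.43. Fits without 1 library changed its sign in 3 of 6 cases, and the fit with the replicate number as a block gave 0.46.

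IER2 encodes an immediate early nuclear protein of the same family, linked to the motility of tumour cells. The gene (ENSG00000160888.6, chr19:13150415-13154908, plus strand) had 801, 988 and 1029 counts in the controls and 1018, 263 and 171 counts after si-AC010789.1. In CPM these were 70.9, 74.4 and 77.1 in the controls and 88.8, 21.0 and 13.8 after si-AC010789.1. The control libraries lay close together, while the knockdown group held the highest library and the 2 lowest, replicate 1 being 4.23-fold above the middle library of its group. Group means were 74.1 ± 3.11 CPM and 41.2 ± 41.4 CPM (SD, n = 3), with a fitted log2 fold change of -0.85 (SE 0.65).

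The size of that difference depended on single libraries. It was -2.09 without si-AC010789.1 1 and -0.44 without si-AC010789.1 3, and it kept its sign in all 6 fits without 1 library. With the replicate number as a block it was -1.32. IER2 overlaps AC011446.2, and the sources used here do not say whether counting used the strand, so its level may include reads of that gene.

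The reads of IER2 came mainly from 1 transcript. ENST00000588173, of 1 exon and 2934 nt, held 797, 896 and 1026 counts under siRNA-NC against 1013, 188 and 147 under si-AC010789.1, and so had the same high and low libraries as the gene. Its share of the gene was 90.7% to 99.7% in the controls, and in the knockdown it was 99.5%, 71.5% and 86.0% for replicates 1, 2 and 3. The other two transcripts were low: ENST00000292433 had 4, 89 and 3 counts in the controls and 0, 46 and 0 after si-AC010789.1, and ENST00000587885 had 0, 3 and 0 against 5, 29 and 24. In the 2 libraries with low IER2 the main transcript held fewer counts than in the others, and neither of the other transcripts gained as many.

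**Figure D2:**
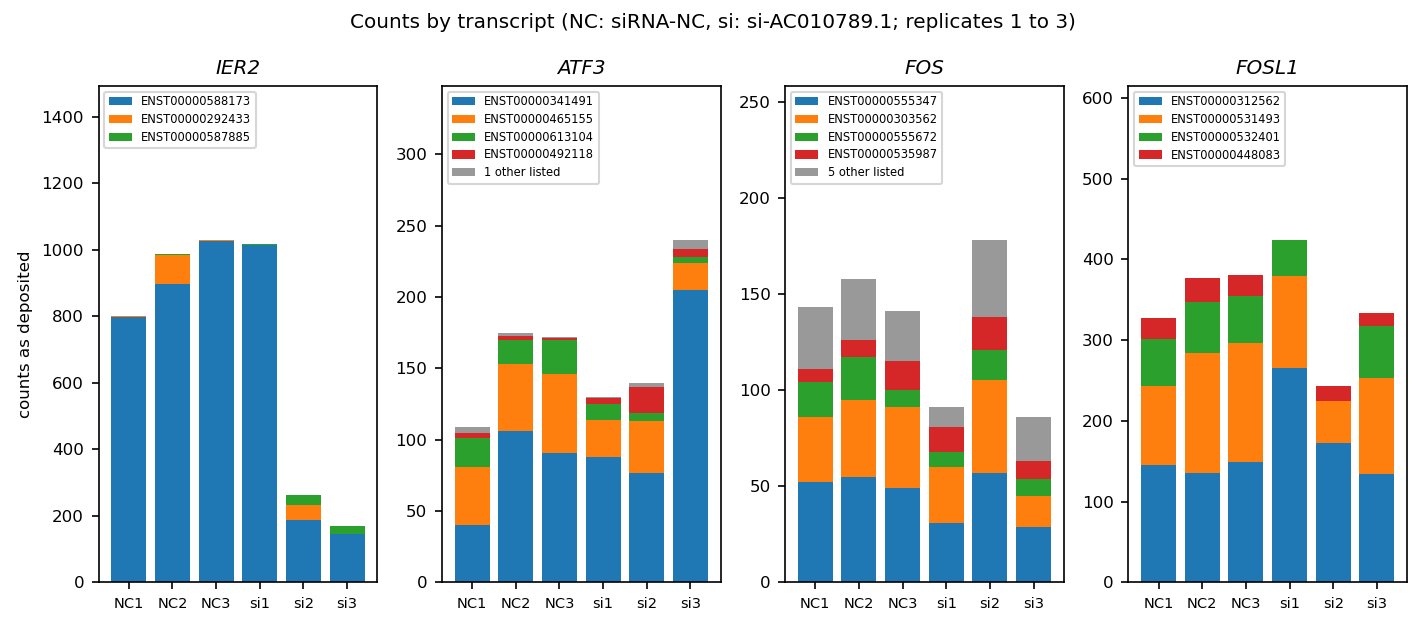
Deposited counts of IER2, ATF3, FOS and FOSL1 by transcript (stacked bars, linear axis from 0) in siRNA-NC (NC1 to NC3) and si-AC010789.1 (si1 to si3). The main IER2 transcript falls short in si2 and si3, and the main ATF3 transcript is tallest in si3 at 205 counts.

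The spread of these genes over the 6 libraries was compared with that of the other genes. The ratio of the highest to the lowest library, with 0.5 CPM added, was 174 for IER5 and 6.23 for IER2, which ranked 2 and 74 among 9971 genes. Of these genes 143 (1.43%) reached a ratio of 4 and 822 (8.24%) a ratio of 2, and 2 of the 10 immediate early and AP-1 genes reached each. The other 8 had ratios from 1.14 (IER3) to 1.97 (FOS), where the median gene had 1.28. Since the genes were chosen for gaps of this kind, nothing is read from that share.

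**Figure D3:**
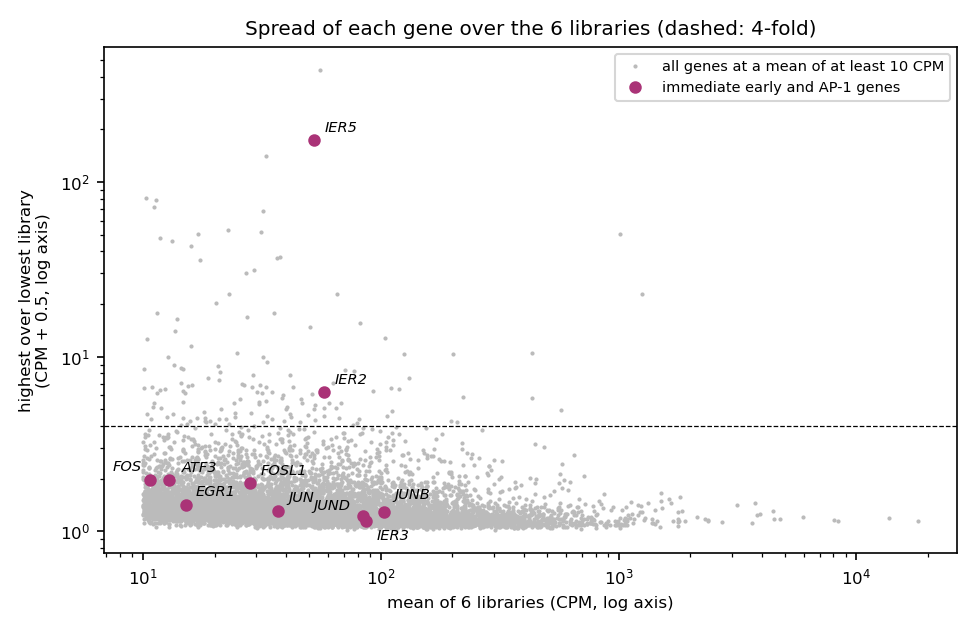
Highest over lowest library (CPM + 0.5, log axis) against the mean of the 6 libraries (CPM, log axis) for genes with a mean of at least 10 CPM, with the 10 immediate early and AP-1 genes in purple and a dashed line at 4. IER5 (174) and IER2 (6.23) lie above the line and the other 8 genes below it.

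Genes most alike IER5 and IER2 over the 6 libraries were sought by Pearson's r of log2(CPM + 0.5) among 344 genes that also differed at least 4-fold between libraries. The correlations describe 6 libraries of 2 groups and share their depth and siRNA, and 16 genes had an r above 0.9 with IER5 and 7 with IER2. SLC6A6, a taurine transporter, followed IER5 most closely (r = 0.982), at 146, 683 and 720 CPM under siRNA-NC against 647, 603 and 634 CPM under si-AC010789.1. TVP23C-CDRT4 (r = 0.98) had 1.86, 14.2 and 12.5 CPM under siRNA-NC against 15.4, 10.7 and 11.1 CPM under si-AC010789.1. FAHD1, a mitochondrial enzyme, (r = 0.971) had 0.708, 37.2 and 33.7 CPM in the controls and 32.0, 35.5 and 36.6 CPM after si-AC010789.1. All of them were lowest in siRNA-NC 1, as IER5 was, which follows from choosing them by likeness to it. None of the 3 shared the lower level of IER5 in si-AC010789.1 3.

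For IER2 the nearest gene was RPS10-NUDT3 (r = 0.992), with 94.1, 98.2 and 106 CPM under siRNA-NC against 92.0, 19.1 and 12.3 CPM under si-AC010789.1. SNORD16, a small nucleolar RNA, (r = 0.982) had 3.1, 4.07 and 3.67 CPM in the controls and 3.75, 0.0798 and 0.0809 CPM after si-AC010789.1. GACAT2, a long non-coding RNA, (r = 0.969) had 9, 11 and 13 counts in the controls and 18, 0 and 0 counts after si-AC010789.1. These 3 genes were low in si-AC010789.1 2 and 3 and not in replicate 1, the pattern of IER2 by which they were chosen, so nothing is read from the likeness. RPS10-NUDT3 and TVP23C-CDRT4 are read-through genes that share exons with their neighbours, and SNORD16 lies within a host gene, so their counts depend on how shared reads were divided.

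The AP-1 subunits of the JUN family were steady. JUN, the founding AP-1 subunit and main partner of FOS proteins (ENSG00000177606.6, chr1:58780788-58784327, minus strand, 1 exon), had 33.6, 38.2 and 37.9 CPM under siRNA-NC against 32.9, 43.1 and 35.2 CPM under si-AC010789.1. The ranges overlapped, with the knockdown group spanning the control group. Means were 36.6 ± 2.6 and 37.1 ± 5.35 CPM (SD, n = 3) with a log2 fold change of 0.02 (SE 0.12), which lay between -0.10 without si-AC010789.1 2 and 0.10 without si-AC010789.1 1. JUN was also an assay of the study by quantitative PCR, with the primers printed here because they show which part of the mRNA that assay reads. They match nucleotides 2060 to 2238 of ENST00000371222 (3540 nt), a product of 179 bp at chr1:58782090-58782268, while the sequencing counts cover the whole transcript. By that assay the paper reported lower JUN mRNA with AC010789.1 knockdown in HCT116 cells, whereas in these libraries the groups overlapped. The cause of the difference was not tested.
Forward primer: agtgccgaaaaaggaagctg
Reverse primer: ctgctgcgttagcatgagtt

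JUNB, a JUN family member that often restrains JUN, (ENSG00000171223.5, chr19:12791496-12793315, plus strand) had 104, 114 and 105 CPM in the controls and 99.2, 104 and 89.0 CPM after si-AC010789.1. Its groups did not overlap, although the lowest control library and the highest knockdown library were equal to 3 digits. Groups without overlap were seen for 3456 of 13764 tested genes (25.1%), 1772 of them lower in si-AC010789.1 (12.9%), and for 1 of the 10 immediate early and AP-1 genes. The means were 108 ± 5.62 and 97.3 ± 7.53 CPM (SD, n = 3) and the log2 fold change was -0.15 (SE 0.07), from -0.20 to -0.09 when libraries were left out. JUNB overlaps HOOK2 on the other strand, which may add reads to it.

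JUND, the JUN family member that is present in resting cells, (ENSG00000130522.5, chr19:18279760-18281622, minus strand) had 83.0, 94.1 and 77.1 CPM under siRNA-NC against 84.3, 84.0 and 82.7 CPM under si-AC010789.1. The knockdown libraries lay within the range of the controls. The log2 fold change was -0.02 (SE 0.08), and the means were 84.7 ± 8.6 and 83.7 ± 0.824 CPM (SD, n = 3).

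FOS and FOSL1 varied more than the 3 JUN family genes, with the wider spread in the knockdown group. FOS, the inducible partner of JUN, (ENSG00000170345.9, chr14:75278774-75282230, plus strand) had 12.7, 11.9 and 10.6 CPM in the controls and 7.94, 14.2 and 6.96 CPM after si-AC010789.1. Replicate 2 of the knockdown was the highest of the 6 libraries and replicates 1 and 3 were the lowest, so the groups overlapped. Means were 11.7 ± 1.06 and 9.7 ± 3.93 CPM (SD, n = 3) and the log2 fold change was -0.27 (SE 0.27), from -0.65 without si-AC010789.1 2 to -0.08 without si-AC010789.1 3.

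FOS counts were spread over 9 of its 10 annotated transcripts. ENST00000555347 held the largest part, with 52, 55 and 49 counts under siRNA-NC against 31, 57 and 29 under si-AC010789.1, a share of 32.0% to 36.4% in every library. ENST00000303562, of 2158 nt, had 34, 40 and 42 counts against 29, 48 and 16. Both transcripts repeated the order of the gene in the knockdown group, with replicate 2 the highest.

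FOSL1 (FRA-1), an AP-1 subunit that ERK signalling stabilises in tumour cells, (ENSG00000175592.8, chr11:65892049-65900573, minus strand) had 28.9, 28.4 and 28.6 CPM under siRNA-NC against 37.0, 19.4 and 27.0 CPM under si-AC010789.1. The highest control was 1.02-fold above the lowest, while the knockdown libraries lay on both sides of them. The means were 28.6 ± 0.286 and 27.8 ± 8.83 CPM (SD, n = 3), and the log2 fold change of -0.04 (SE 0.22) ranged from -0.30 without si-AC010789.1 1 to 0.16 without si-AC010789.1 2.

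Its 4 listed transcripts did not move together. ENST00000312562 had 145, 135 and 149 counts in the controls and 265, 173 and 134 after si-AC010789.1. ENST00000532401 had 58, 63 and 58 counts under siRNA-NC against 44, 0 and 65 under si-AC010789.1, so it was at 0 in the library where FOSL1 was lowest. ENST00000448083 had 26, 30 and 26 counts in the controls and 0, 18 and 16 after si-AC010789.1, with its 0 in the library where FOSL1 was highest. Counts of single transcripts depend on how reads shared between isoforms were divided, which the sources used here do not give.

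EGR1 and ATF3 are transcription factors outside the JUN and FOS families. EGR1, a zinc finger factor and a classical target of SRF, (ENSG00000120738.7, chr5:138465490-138469315, plus strand) had 12.7, 18.3 and 15.1 CPM in the controls and 13.5, 16.4 and 14.7 CPM after si-AC010789.1. The knockdown libraries lay inside the range of the controls, the means were 15.4 ± 2.79 and 14.9 ± 1.42 CPM (SD, n = 3), and the log2 fold change was -0.05 (SE 0.15). ATF3, a stress-induced factor that pairs with JUN proteins, (ENSG00000162772.16, chr1:212565334-212620777, plus strand) had 9.65, 13.2 and 12.9 CPM under siRNA-NC against 11.3, 11.2 and 19.4 CPM under si-AC010789.1. Replicate 3 of the knockdown stood above the other 5 libraries, 1.71-fold above the middle library of its group.

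That library carried the ATF3 difference. Means were 11.9 ± 1.96 and 14.0 ± 4.71 CPM (SD, n = 3) with a log2 fold change of 0.23 (SE 0.25), and without si-AC010789.1 3 it was -0.08. The excess was in ENST00000341491, a protein-coding transcript with 40, 106 and 91 counts under siRNA-NC against 88, 77 and 205 under si-AC010789.1, or 85.4% of the gene in replicate 3 against 36.7% to 67.7% elsewhere. The retained-intron transcript ENST00000465155 had 41, 47 and 55 counts in the controls and 26, 36 and 19 after si-AC010789.1, lower in each knockdown library than in any control. ENST00000613104 had 20, 17 and 24 counts against 11, 6 and 4, again without overlap. These 2 transcripts were singled out after their values were seen and were not tested.

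IER3, an immediate early gene that modulates apoptosis and ERK signalling, (ENSG00000137331.11, chr6:30743199-30744554, minus strand) was the steadiest of the 10 genes, with 81.4, 84.7 and 92.6 CPM in the controls and 85.6, 85.5 and 88.8 CPM after si-AC010789.1. The knockdown libraries lay within the range of the controls. Means were 86.2 ± 5.79 and 86.6 ± 1.87 CPM (SD, n = 3) and the log2 fold change was 0.01 (SE 0.07). ENST00000259874 held 78.1% to 85.8% of its counts in every library. IER3 overlaps IER3-AS1, and reads of the 2 genes cannot be told apart where counting ignored strand.

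Across the comparison of si-AC010789.1 with siRNA-NC, edgeR called 130 of 13764 tested genes (0.944%) at an adjusted p under 0.05, of which 37 were higher (0.269%) and 93 lower (0.676%). All 10 immediate early and AP-1 genes passed the filter on low counts, and 0 were called by edgeR. At an unadjusted p under 0.05 the count was 0 of 10, where 2361 tested genes (17.2%) passed, and DESeq2 also called 0, where it called 522 genes (3.79%). Since the genes were chosen with these values known, nothing is read from these counts. The log2 fold change was negative in 7 and positive in 3, where 49.9% of all tested genes were positive, with a median of -0.048 against -0.0006 over all tested genes. JUNB, FOS and IER2 kept a negative sign in all 6 fits without 1 library, and each of the other 7 changed sign in at least 1.

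**Figure D4:**
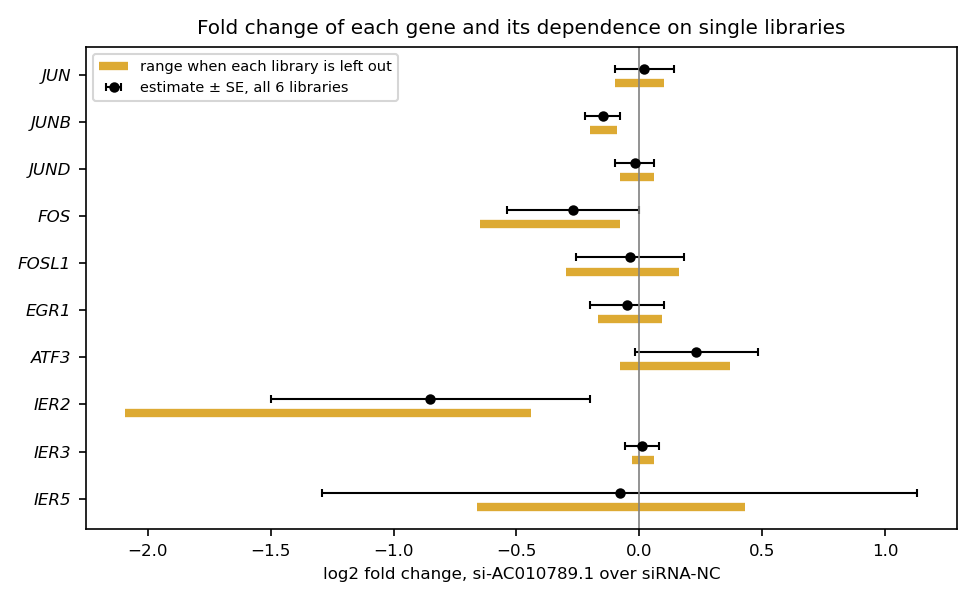
Log2 fold change of si-AC010789.1 over siRNA-NC for the 10 genes (points, bars ± SE, all 6 libraries) with the range of the 6 fits that each leave out 1 library (yellow). The ranges of JUNB, FOS and IER2 stay below 0, IER2 reaches -2.09, and IER5 runs from -0.66 to 0.43.

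The remaining subunits that can pair with JUN or FOS proteins, from the FOS, BATF, ATF and MAF families, were held in a list of 16 genes, 15 with counts and 12 tested. EdgeR called 0 of them, 3 (BATF3, JDP2 and ATF7) had an unadjusted p under 0.05, and DESeq2 called 0, where all tested genes gave 0.944%, 17.2% and 3.79%. Their median log2 fold change was 0.09 against -0.0006 over all tested genes, with 7 positive and 5 negative (49.9% positive over all tested genes). MAFF, a small MAF protein without an activating domain, had the most negative value (-0.87, SE 0.492, edgeR adjusted p = 0.424). Its levels were 13.5, 17.5 and 17.4 CPM under siRNA-NC against 4.97, 4.71 and 16.7 CPM under si-AC010789.1, so knockdown replicates 1 and 2 were low and replicate 3 was not. MAFA, a large MAF factor, followed at -0.33 (SE 0.153, edgeR adjusted p = 0.338). The highest values were those of BATF3, a JUN partner, at 0.60 (SE 0.238, edgeR adjusted p = 0.273) and of JDP2, a repressor that binds JUN, at 0.35 (SE 0.124, edgeR adjusted p = 0.227). JDP2 had 18.2, 18.6 and 14.2 CPM in the controls and 21.6, 22.9 and 20.7 CPM after si-AC010789.1.

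Of 50 other immediate early genes, 49 had counts and 47 were tested. EdgeR called 0, 9 had an unadjusted p under 0.05, and DESeq2 called 1, CCN1 (adjusted p = 0.0465), beside 0.944%, 17.2% and 3.79% of all tested genes. The median log2 fold change was -0.128, with 14 positive and 33 negative where 49.9% of all tested genes were positive, and MAFF and FOSB are also on the list of subunits. KLF4, a zinc finger factor of the colonic epithelium, had 87.3, 78.5 and 78.5 CPM under siRNA-NC against 72.4, 38.9 and 37.9 CPM under si-AC010789.1. Its log2 fold change was -0.71 (SE 0.254, edgeR adjusted p = 0.233), and it passed the threshold when si-AC010789.1 1 was left out (edgeR adjusted p = 0.0229). Knockdown replicates 2 and 3, in which KLF4 was lowest, were also the libraries with low IER2.

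The highest values on this list were those of CCN2 (CTGF), a secreted matrix protein, and of ID3, an inhibitor of basic helix-loop-helix factors. CCN2 had 18.6, 17.6 and 15.5 CPM in the controls and 21.9, 23.7 and 23.1 CPM after si-AC010789.1 (log2 fold change 0.41, SE 0.097, edgeR adjusted p = 0.114). ID3 had 36.1, 44.7 and 39.7 CPM against 44.3, 56.7 and 57.9 CPM (log2 fold change 0.40, SE 0.131, edgeR adjusted p = 0.208). MYC, singled out after its values were seen, was the 1 gene of the list with a 4-fold range between libraries. It had 169, 120 and 10.4 CPM under siRNA-NC against 12.7, 14.3 and 166 CPM under si-AC010789.1, so siRNA-NC 3 and si-AC010789.1 1 and 2 were low. Of these, si-AC010789.1 2 was also low in IER2 and none was low in IER5. The MYC log2 fold change of -0.63 (SE 1.238) ran from -2.89 to -0.02 when libraries were left out. By quantitative PCR the paper reported lower MYC mRNA with AC010789.1 knockdown, a direction that these libraries do not resolve.

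Upstream of these genes, 35 kinases, promoter factors and genes of protein or mRNA turnover were all tested. EdgeR called 1, KHSRP, 7 had an unadjusted p under 0.05, and DESeq2 called 2, KHSRP and ELK4, the background over all tested genes being 0.944%, 17.2% and 3.79%. KHSRP, a protein that binds AU-rich elements and promotes the decay of such mRNAs, fell by 0.30 on the log2 scale (SE 0.044, edgeR adjusted p = 0.0423), with 322, 344 and 347 CPM under siRNA-NC against 271, 274 and 275 CPM under si-AC010789.1. The knockdown libraries were all below the controls, at 273 ± 1.86 against 337 ± 13.6 CPM (SD, n = 3). The call was lost when any 1 library was left out (edgeR adjusted p from 0.0734 to 0.15), without a filter on low counts (0.0726) and with the replicate number as a block, whereas with libraries left out the log2 fold change stayed between -0.34 and -0.29.

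No other gene of that list passed the threshold in edgeR. ELK1, an SRF partner phosphorylated by ERK, had 55.4, 56.6 and 56.1 CPM in the controls and 42.1, 49.1 and 44.2 CPM after si-AC010789.1 (log2 fold change -0.31, SE 0.076, edgeR adjusted p = 0.121). ELK4, called by DESeq2 alone (adjusted p = 0.000663), went the other way. It had 121, 117 and 127 CPM in the controls and 151, 164 and 152 CPM after si-AC010789.1 (log2 fold change 0.35, SE 0.056, edgeR adjusted p = 0.0519). MAP2K4, a kinase of the JNK branch, had 39.4, 36.4 and 36.6 CPM against 13.0, 37.0 and 36.9 CPM, so its value of -0.37 (SE 0.366, edgeR adjusted p = 0.665) came from si-AC010789.1 1. MAPK14 (p38α) had 84.2, 32.0 and 41.1 CPM against 97.5, 98.2 and 45.3 CPM (log2 fold change 0.62, SE 0.437, edgeR adjusted p = 0.522), with high libraries in both groups. CREB1, which binds TGACNTCA, had a log2 fold change of 0.36 (SE 0.184, edgeR adjusted p = 0.379). The median of the list was -0.046, with 13 positive and 22 negative.

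Of 31 genes taken as known AP-1 targets, 27 had counts and 24 were tested. EdgeR called 2, 1 in each direction, 6 had an unadjusted p under 0.05, and DESeq2 called 4, set beside 0.944%, 17.2% and 3.79% over all tested genes. CCND1 (cyclin D1), which drives the passage from G1 to S phase, rose by 0.41 on the log2 scale (SE 0.063, edgeR adjusted p = 0.0473), from 189 ± 13.0 to 252 ± 10.5 CPM (SD, n = 3). Its libraries were 176, 190 and 202 CPM in the controls and 241, 262 and 254 CPM after si-AC010789.1, without overlap. The paper reported the other direction with AC010789.1 knockdown, less cyclin D1 mRNA by quantitative PCR and less protein by western blot. Those blots were of HCT116 cells and a second colorectal line with stable knockdown, whereas these libraries are from cells with a transfected siRNA. The cause of the difference was not tested. CDKN1A (p21), which inhibits cyclin-dependent kinases, fell by 0.48 on the log2 scale (SE 0.068, edgeR adjusted p = 0.0401), from 144 ± 11.1 to 103 ± 2.84 CPM (SD, n = 3). It had 133, 146 and 155 CPM under siRNA-NC against 102, 107 and 101 CPM under si-AC010789.1, again without overlap.

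DESeq2 also called both (adjusted p = 0.000105 for CCND1 and 2.19e-05 for CDKN1A). Both edgeR calls were lost when any 1 library was left out (edgeR adjusted p 0.0771 to 0.157 for CCND1, 0.0636 to 0.141 for CDKN1A). They were also lost without a filter on low counts and with the replicate number as a block, while the signs held with libraries left out. IL6, an inflammatory cytokine, had 21, 20 and 16 counts in the controls and 0, 6 and 3 after si-AC010789.1 (log2 fold change -2.57, SE 0.667, edgeR adjusted p = 0.135), which puts the knockdown libraries near the floor. MMP13, a collagenase, was at a log2 fold change of -1.18 (SE 0.443, edgeR adjusted p = 0.251), from levels of 1.05 to 2.02 CPM under siRNA-NC against 0.436 to 1.04 CPM under si-AC010789.1. The median of the list was 0.03, with 13 positive and 11 negative.

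**Figure D5:**
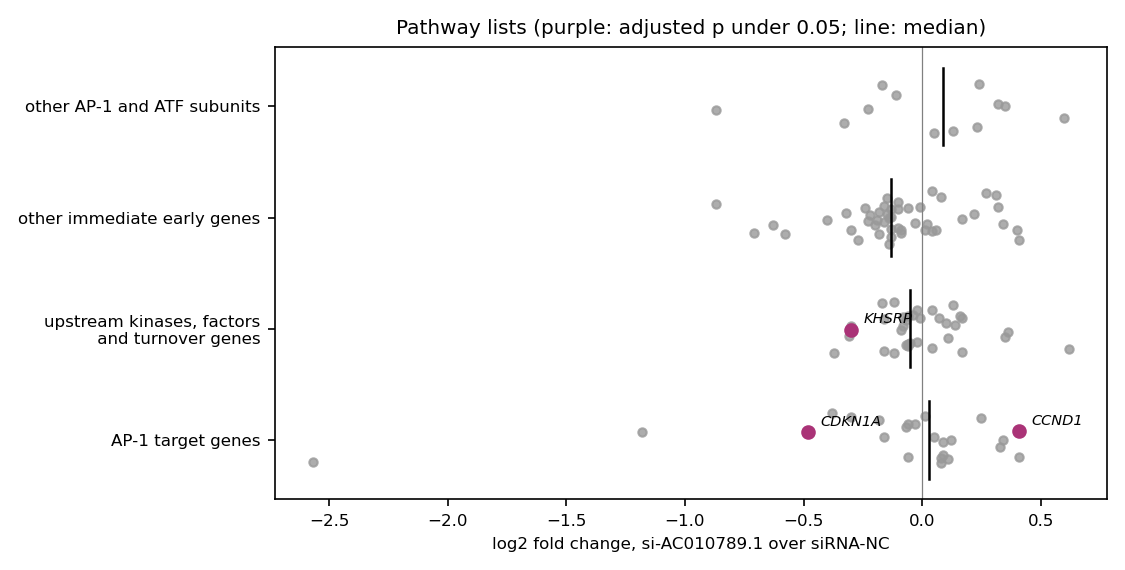
Log2 fold change of si-AC010789.1 over siRNA-NC for the tested genes of the 4 lists, with the median of each list as a line and genes past an edgeR adjusted p of 0.05 in purple. KHSRP, CDKN1A and CCND1 are the called genes, and the point farthest to the left is IL6 at -2.57.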

How the data were processed

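Libraries of 2 groups of HCT116 cells, siRNA-NC and si-AC010789.1 (n = 3 each), were analysed, with groups and replicate numbers from the sample labels. The authors deposited counts per Ensembl transcript, as whole numbers that were not normalized. The library preparation was TruSeq, sequenced on a NovaSeq. The submitters' processing notes name CASAVA 1.8, TopHat2 2.0.6 and the builds GRCh38 and mm10 without their roles. Cuffdiff is named in the paper as the test for differential expression. The counting program, its strand setting, the annotation and the division of reads between isoforms are not given in the sources used here.

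The design had assumed values per gene, so the 98886 transcripts were added up per gene with GENCODE v29 (GRCh38), leaving out 83 without a match. Genes were tested with edgeR 4.0.16 in R 4.3.3 (TMM factors between 0.9935 and 1.007, a filterByExpr minimum of 10 counts and total of 15, the quasi-likelihood test, Benjamini-Hochberg adjustment over 13764 genes, threshold 0.05). The biological coefficient of variation was 0.17. Levels are TMM-scaled CPM. Ratios between libraries and correlations used CPM + 0.5. DESeq2 1.42.0, its size factors in edgeR, no filter, a mean of at least 1 CPM, the replicate number as a block, CPM without TMM, the most abundant transcript alone and the omission of each library were the alternatives. On simulated counts for 13657 tested genes, the same test called 86% of 100 genes altered 1 log2 unit and 100% of 100 genes altered 2 units, with 10 unchanged genes among 196 calls. The simulation gave every gene the same spread and altered only genes with ample counts. It therefore does not give the share that would be called among genes with wide gaps between libraries, such as IER5, IER2 or MYC.

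The 10 genes, the 4 pathway lists and the marker lists were chosen with earlier results of these data known, and the lists were written from general knowledge. All 10 genes are named. From each pathway list, genes with an adjusted p under 0.05 and the 2 highest and 2 lowest log2 fold changes among tested genes are named, and for genes with a 4-fold range over libraries the 3 genes most alike with such a range. Of these, 1 gene that this rule names is not reported here. Tables and plots were made with Python 3.11.15, pandas 2.3.3, numpy 2.4.6 and matplotlib 3.10.9. Promoter sequences are from RefSeq (GRCh38.p14).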

Additional observations from a re-analysis of the deposited data

How the results depend on the processing

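The count of genes called over the whole table was 130 and became 522 with DESeq2 (218 higher, 304 lower), 69 without a filter on low counts, and 12 to 37 when 1 library was left out (12 without si-AC010789.1 3). With DESeq2 size factors in edgeR it was 127 and with a mean of at least 1 CPM it was 131. The other immediate early genes had 0 calls, 1 with DESeq2, and 0 to 1 when a library was left out (1, KLF4, without si-AC010789.1 1). The upstream genes had 1 call, 2 with DESeq2, 0 without a filter and 0 to 0 when a library was left out. AP-1 targets had 2 calls, 4 with DESeq2, 0 without a filter and 0 to 0 when a library was left out. The other AP-1 and ATF subunits had 0 calls under all alternatives run. Leaving out libraries reduces the samples; the causes of the other shifts were not tested.

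With the replicate number as a replicate block, 0 genes of the whole table were called by edgeR (2162 at an unadjusted p under 0.05), 0 of the upstream genes and 0 of the AP-1 targets. The labels give the groups the same numbers without saying what they share. Deviations of same-numbered libraries from their group means correlated at 0.099, 0.005 and 0.008. The 0.099, of the replicates numbered 1, was the highest of all pairs. In contrast, siRNA-NC 2 correlated best with si-AC010789.1 3 (0.079) and siRNA-NC 3 with si-AC010789.1 2 (0.019). Deviations from a mean of so few libraries depend on each other, so these correlations cannot exclude a pairing. The libraries were not treated as paired because the labels do not state a pairing.

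Log2 fold changes of the 10 genes moved by less than the spread in 58 of 60 fits without 1 library, the exceptions being FOS without si-AC010789.1 2 (-0.65) and IER2 without si-AC010789.1 1 (-2.09). Levels without TMM stayed within the spread in 60 of 60 values, and levels from the most abundant transcript alone moved in 22 of 60. Groups of 3 libraries leave differences of the size seen in most of these genes within the error, and a value at 0 is limited to 3 counts.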
